A study of Mus musculus with 20 samples.

Results

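Peaks of N6-methyladenosine (m6A) immunoprecipitation were compared between mouse embryonic stem cells labelled Mettl3 KO1 and their Mettl3 control, with 2 libraries in each group. The peaks of these 4 lists were merged on each strand wherever they overlapped by at least 1 bp, which gave 63294 regions, set against 87498 when the lists of all 10 immunoprecipitated libraries of the series were merged the same way. A region was called lost when it held a peak in both control libraries and in neither KO1 library, gained in the reverse case, and kept when it held a peak in all 4. The KO2 libraries took no part in these calls.

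All samples came from C57BL/6 embryonic stem cells grown with serum, LIF, the GSK3 inhibitor CHIR99021 and the MEK inhibitor PD0325901. The RNA was taken from the chromatin-associated fraction, depleted of ribosomal RNA, fragmented, immunoprecipitated with an m6A antibody and sequenced with strand information. The Mettl3 arm holds control, KO1 and KO2 libraries and a separate arm holds Ythdc1 control and Ythdc1 cKO libraries, 2 of each. How the KO1 line was made, and whether it is a clone or a pool, is not given in the sources used here, nor is it stated that replicate libraries derive from independent cultures, so their spread may be technical.

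METTL3 is the catalytic subunit of the nuclear complex that methylates adenosines in RNA, where it works with METTL14 and WTAP, mostly at the motif written DRACH, of which GGAC is the core most often used. YTHDC1 is the nuclear reader that binds m6A. RNA on chromatin includes pre-mRNA with its introns, long non-coding RNA, and short-lived transcripts of promoters, enhancers and repeats, and m6A on such RNA is known to influence its stability and the state of the chromatin nearby.

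The sequences below show exonic summits that stood behind the calls, so that the motif can be seen in lost, kept and gained regions. They were read from the GENCODE M21 transcripts (GRCm38, the assembly also called mm10) and run 5′ to 3′ along the transcript. Capitals mark GGAC where the 101 nt around the summit held it, and otherwise the DRACH match nearest the summit, which is A, G or T, then A or G, then AC, then A, C or T. The first set is from lost regions: the coding exon of Mettl3 itself (chr14:52299880-52299940, minus strand), the coding exon of the matrix gene Ccdc80 (chr16:45095496-45095556, plus), a site in the 3′ UTR of the cytokine gene Csf1 (chr3:107742800-107742828, minus), a coding exon of Usp17le (chr7:104768699-104768759, minus), 5′ UTR sites of Zscan4c (chr7:11006493-11006521, plus) and Zscan4d (chr7:11165383-11165411, minus), and an exon of the long non-coding RNA Trp53cor1 (chr17:29059159-29059219, minus).
Mettl3: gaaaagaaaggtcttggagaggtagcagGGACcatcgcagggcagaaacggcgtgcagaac
Ccdc80: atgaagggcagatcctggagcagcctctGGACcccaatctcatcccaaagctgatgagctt
Csf1: gaacctggcaagGGACtcactagcctgga
Usp17le: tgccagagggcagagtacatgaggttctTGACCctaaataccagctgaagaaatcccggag
Zscan4c: cgtaaagtcacaAAACAgatattaaacta
Zscan4d: cataaagtcacaAAACAgatactaaactg
Trp53cor1: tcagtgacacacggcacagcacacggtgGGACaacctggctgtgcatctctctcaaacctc

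The second set is from the 4 strongest kept exonic regions, in coding exons of Usp35 (chr7:97312196-97312256, minus), a deubiquitinase gene, Brwd3 (chrX:108743479-108743539, minus), Trmt13 (chr3:116582646-116582706, minus), a tRNA methyltransferase gene, and the mismatch repair gene Pms2 (chr5:143925485-143925545, plus). The 101 nt around the summit held GGAC 3 times in Usp35 and in Pms2, 1 time in Trmt13 and not at all in Brwd3, where the capitals mark another DRACH match.
Usp35: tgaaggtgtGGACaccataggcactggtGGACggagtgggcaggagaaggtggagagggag
Brwd3: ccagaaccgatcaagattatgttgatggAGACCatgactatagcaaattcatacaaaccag
Trmt13: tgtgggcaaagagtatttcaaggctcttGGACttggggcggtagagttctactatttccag
Pms2: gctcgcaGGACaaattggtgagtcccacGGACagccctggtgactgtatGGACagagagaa

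The last sequence is from a gained region, in the 3′ UTR of the receptor kinase gene Grk3 (chr5:112960551-112960579, minus). Its summit lay close to an end of the transcript, so fewer than 101 nt were searched. That stretch held no GGAC, and the capitals mark another DRACH match.
Grk3: aaagaaacaaagAAACAaaaaagaaagaa

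The Mettl3 transcript carried 1 region in the controls, in a coding exon (chr14:52299727-52300047, minus), and that region was lost. Its fold enrichment, the authors' ratio of the pile-up to the background at the summit within a library, was 6.15 and 5.06 in the controls. It was also called in KO2 (3.63 and 2.65), in the Ythdc1 control (6.97 and 3.44) and in 1 of 2 cKO libraries (4.24). The peak lists do not show whether the deleted part of the gene lies there, and 1 cKO library also lacked the peak, so the call is no check of the label. The 6 control regions of Ythdc1 were all kept.

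The control libraries held 45292 and 46735 peaks and the KO1 libraries 40959 and 41004. Peaks covered 18.8 and 19.7 Mb in the controls and 15.3 and 15.5 Mb in KO1, a difference of -3.79 Mb, which was -2.44 Mb when the same number of strongest peaks was taken from each library. Background pile-up on the plus strand was 16.4 and 18.2 reads in the controls against 16.3 and 16.5 in KO1, and at the most common background the weakest called peaks held 34 to 38 reads in the controls and 33 to 35 in KO1. Sequencing depth is unknown from the lists. All 10 genes that mark embryonic stem cells in the list used here held a control region, and 9 held a KO1 region. Of 12 fibroblast markers, 6 held a control region and 2 a KO1 region, no primitive endoderm marker of 6 held a region in either group, 1 of 5 trophoblast markers (Eomes) and 3 of 5 neural markers did in both. In a longer list of 13 primitive endoderm genes, however, 4 held a control region and 3 a KO1 region.

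Of 38233 regions found in both controls, 9274 were lost (24.3%) and 24715 were kept, while 3959 of the 32091 regions found in both KO1 libraries were gained (12.3%). Lost regions made up 70.1% of lost and gained together, and 57.1% when the same number of strongest peaks was used (7947 lost and 5969 gained). Replicates shared more regions than groups did: 86.9% of the regions of control replicate 1 were found in control replicate 2, 65.6% and 65.7% of them in the KO1 libraries, and 82.1% of the regions of KO1 replicate 1 were found in KO1 replicate 2. With 2 libraries in a group every call needs both, so calls made on 1 library are more numerous: 14096 regions were lost without control replicate 1, and 7914 or 7859 were gained without KO1 replicate 1 or 2. A lost region is the absence of a called peak, and less methylation, less of the transcript, and fewer cells that make it cannot be told apart in these lists.

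Lost regions were weaker than kept ones but not confined to the detection limit. Their median height, taken as the smaller of the 2 fold enrichments in the controls, was 3.87 with a median summit pile-up of 73 reads, against 5.28 and 143 reads for kept regions in the controls. Of the lost regions, 1799 reached a height of 5 or more. Gained regions had a median height of 3.35 and 78 reads in KO1, where kept regions had 4.69 and 128 reads, and 369 gained regions reached a height of 5.

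The peaks of KO1, gained ones included, were spread over the transcriptome in other shares than those of the controls. Introns held 38.2% ± 0.030 (SD, n = 2) of control peaks and 50.1% ± 0.025 (n = 2) of KO1 peaks, and the number of intron peaks was higher in KO1 (mean 20536) than in the controls (mean 17590) although KO1 had fewer peaks in all. Intergenic sequence held 15.7% ± 0.13 of control peaks and 9.06% ± 0.092 of KO1 peaks, antisense positions inside genes 7.98% ± 0.12 and 4.85% ± 0.087, and 3′ UTRs 10.7% ± 0.014 and 8.99% ± 0.062. In each of these 4 classes the 2 control and 2 KO1 libraries did not overlap, and the two-sided exact permutation test gave p = 0.333, the smallest value that 2 libraries against 2 allow. Coding exons held 19.96% ± 0.19 of control peaks and 20.2% ± 0.24 of KO1 peaks, and the libraries overlapped (exact permutation p = 0.667). The number of coding exon peaks was lower in KO1 (8200 and 8349) than in the controls (9100 and 9264). Set beside these, the KO2 libraries, which are compared with the same controls, had 39.4% of peaks in introns and 13.4% in intergenic sequence.

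**Figure D1:**
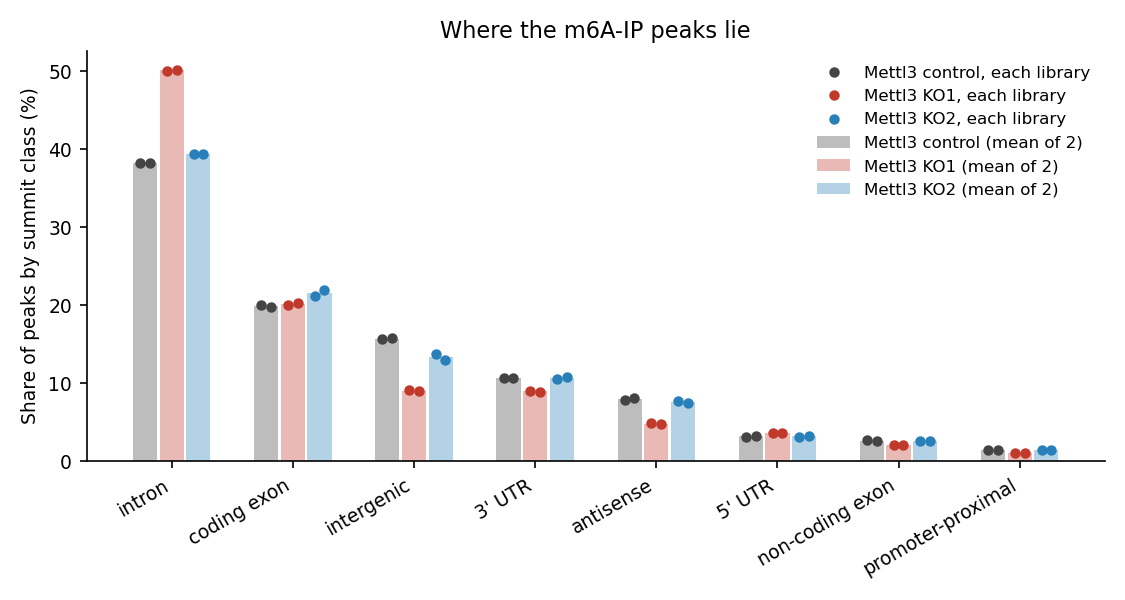
Share of m6A-IP peaks by the class of their summit (y axis, percent of the peaks of a library) for Mettl3 control, KO1 and KO2, with bars for the mean of 2 libraries and points for each library. The KO1 points stand at 50.1% in introns, above the control points at 38.2%, and at 9.06% on average in intergenic sequence, below the control mean of 15.7%.

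Transcripts outside annotated genes lost the largest share of their regions among the classes compared. In distal intergenic sequence, which lies outside genes, promoters and the 10 kb after gene ends, 2271 of 4106 control regions were lost (55.3%), and antisense to genes 1329 of 2925 (45.4%), both above the 24.3% of all control regions. Divergent upstream positions within 2 kb of a start site, where promoter antisense RNA arises, lost 43.9% of 239 regions. The 10 kb after gene ends, where read-through transcription continues, lost 34.2% of 1777, and exons of non-coding genes 33.4% of 1058. Messenger RNA kept more: 3′ UTRs lost 922 of 4378 (21.1%), introns 2332 of 14169 (16.5%), coding exons 1098 of 8003 (13.7%) and 5′ UTRs 13.0% of 1256.

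Of these classes, 5 kept 1 order in each KO1 library taken alone. A single KO1 library lacked 61.1% ± 0.57 (SD, n = 2) of the distal intergenic control regions, 52.4% ± 0.51 of the antisense ones, 27.2% ± 0.55 of those in 3′ UTRs, 21.7% ± 0.20 in introns and 18.7% ± 0.40 in coding exons, so the gaps between these classes were larger than the spread between the libraries. The controls gave the size of ordinary disagreement: of the intergenic peaks of control replicate 1, 14% were absent from control replicate 2 and 58.0% from a KO1 library on average, and of its coding exon peaks 7.22% and 22.0%. For intron peaks the values were closer, 16.2% and 25.5%. In the KO2 comparison, which shares the controls, distal intergenic regions were lost in 33.7%, antisense in 29.3%, introns in 17.4%, coding exons in 11.1% and 3′ UTRs in 11.6% of cases. Over all classes the KO2 comparison lost 18.4% of the control regions.

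The classes also differed among regions of like height. The control regions were split into 5 bins of equal size by their rank in height. In the weakest bin 72.4% of distal intergenic, 61.6% of antisense, 49.2% of 3′ UTR, 26.0% of coding exon and 20.3% of intron regions were lost. In the strongest bin the shares were 22.1% for distal intergenic, 13.0% for antisense, 3.67% for intron, 1.42% for coding exon and 0.89% for 3′ UTR regions. Thus 37 of 2598 strong coding exon regions and 11 of 1236 strong 3′ UTR regions were lost, against 147 of 664 strong distal intergenic ones.

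**Figure D2:**
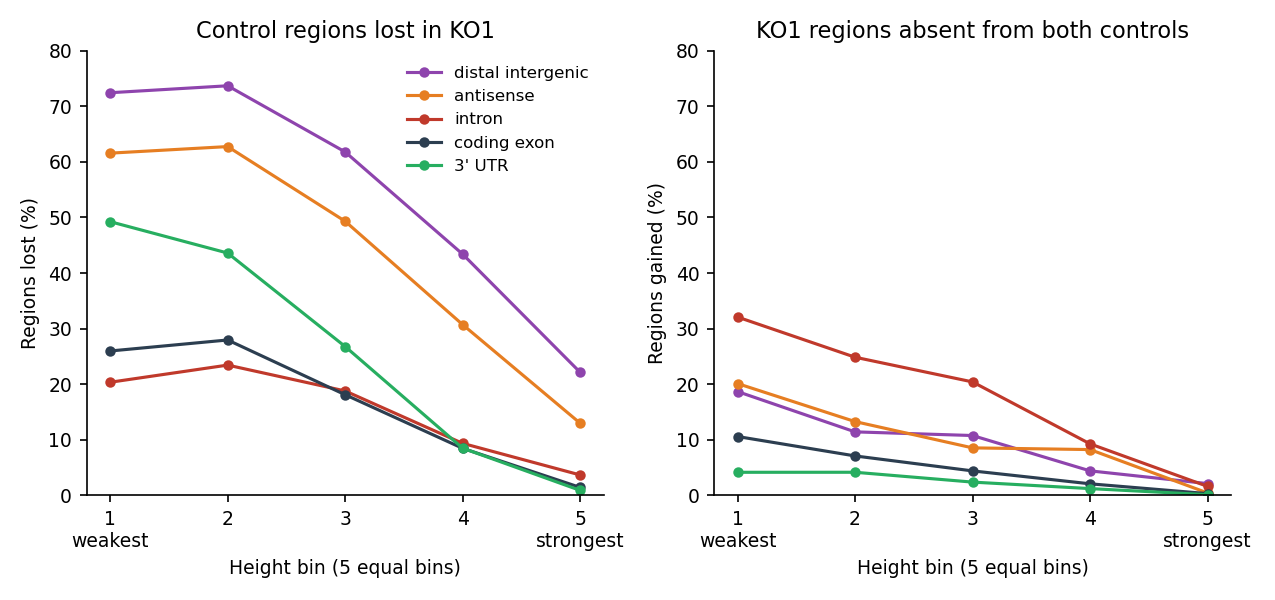
Share of regions called lost (left, percent of control regions) or gained (right, percent of KO1 regions) in 5 bins of equal size from the weakest to the strongest by height, with 1 line per class. On the left the distal intergenic line runs from 72.4% to 22.1% above the coding exon line from 26.0% to 1.42%, and on the right the intron line starts highest at 32.1% and ends at 1.61%.

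Among gained regions introns took the largest part. Introns held 3038 of the 3959 gained regions (76.7%), and 19.1% of 15922 KO1 intron regions were gained, against 12.3% of all KO1 regions, 4.42% for coding exons and 2.07% for 3′ UTRs. Antisense regions were gained in 9.66% and distal intergenic ones in 8.7% of cases. The gained intron regions were mostly weak, since 1197 lay in the weakest bin of KO1 and 40 in the strongest, where 1.61% of intron regions were gained. KO1 replicate 1 had 36.1% of its intron peaks absent from a control library on average and 20.4% absent from KO1 replicate 2, while for coding exons the 2 values were 10.6% and 10.3%. In the KO2 comparison introns gained 16%, antisense positions 25.9% and coding exons 10.2%, beside 14.7% of all KO2 regions.

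Gained intron regions fell in 2155 genes, of which 186 held 3 or more. Their summits lay at a median of 27.3 kb from the gene start, or 40.9% of the way along the gene, beside 32.3 kb and 43.3% for kept intron regions and 34.2 kb and 46.4% for lost ones. Only 6.91% lay within 2 kb of the start, against 8.35% of kept and 9.69% of lost intron regions.

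At the level of genes, 10365 genes held a control region, of which 1139 lost every one (11.0%) and 3502 lost at least 1 (33.8%). Of 9381 genes with a KO1 region, 2520 had at least 1 gained region (26.9%), and 713 genes had both lost and gained regions. Protein-coding genes lost all their regions in 8.82% of 9242 cases and long non-coding RNA genes in 29.9% of 569. These classes of gene differ in how many regions they hold, and among genes with 1 region the shares were 19.3% and 40.7%.

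A few genes held 4 or more control regions and lost them all. Chosen after their values were seen, Cpe, which encodes a carboxypeptidase that processes peptide hormones, and Ccser1 lost all 6 of their regions, Pgpep1l all 5, and Nfix, a transcription factor gene, Trpc6, a calcium channel gene, Colgalt2, a collagen glycosyltransferase gene, and Scd3, a fatty acid desaturase gene, all 4. Among genes with many regions loss was partial: Gucy1a2, a guanylate cyclase subunit gene, lost 13 of 41, Ttn, which encodes titin, 13 of 44, Hs6st3 10 of 58 and Tenm3 9 of 45. Of the lost regions, 3288 (35.5%) lay in runs with another lost region of the same strand within 20 kb and no unlost control region between them. The share that independent losses would give was not computed, so this does not show that losses cluster. In runs of 5 or more, 117 of the 221 regions were intergenic.

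The strongest lost region in a named gene lay in the 3′ UTR of Csf1, the macrophage colony-stimulating factor (chr3:107742020-107743046, minus). It measured 15.4- and 12.3-fold in the controls and had no peak in KO1. The KO2 values were 3.57 and 4.04, those of other libraries 8.12 and 10.1 in the Ythdc1 control and 14.4 and 16.1 in cKO. The summit pile-up in the controls was 252 and 221 reads, far above the 33 to 35 reads of the weakest called KO1 peaks.

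Coding exons held 4 of the 12 strongest losses. Ccdc80, a secreted matrix protein gene, measured 13.6 and 11.1 in a coding exon in the controls and 4.85 and 4.46 in KO2 (chr16:45095288-45096665, plus). Inhba, which encodes the activin A subunit, measured 10.4 and 11.2 in its coding exon and had no peak in KO2 (chr13:16026298-16026772, plus). Prss23, a secreted serine protease gene, measured 14.9 and 10.4 and was called at 2.77 and 4.11 in KO2.

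Intron regions were also among the strongest losses. Antxr1, an anthrax toxin receptor gene, measured 12.1 and 12.5, and it was still called in KO2 at 7.51 and 7.35. Scd3 measured 12.1 and 11.5, Zc3h12b 11.4 and 11.8, Platr25 11.9 and 10.7, Pwp1 10.9 and 10.5, and Arhgap6 12.3 and 10.4 in the controls. Of these 6, the Arhgap6 region was called in 1 KO2 library (4.15) and the other 5 in both.

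The strongest gained regions were nearly all intronic. Smoc1, a secreted calcium-binding matrix gene, held no control region and 5 KO1 regions, 3 of them gained, and the strongest measured 10.5 and 11.3 in KO1 and 14.9 and 6.67 in KO2 (chr12:81064178-81064429, plus). Grk3 measured 13.8 and 10.3 in KO1 and 15.4 and 15.3 in KO2 in its 3′ UTR. Gnas, the imprinted gene of the stimulatory G protein alpha subunit, gained 5 regions, the strongest at 10.9 and 10.2. Grb10, an imprinted adaptor of insulin signalling, had a region at 9.43 and 10.9 that was called in none of the 6 libraries outside the rule. Pknox2, in contrast, measured 10.3 and 8.78 in KO1 and was called in all 6 of those libraries, so it was the control libraries that lacked a peak there.

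**Figure D3:**
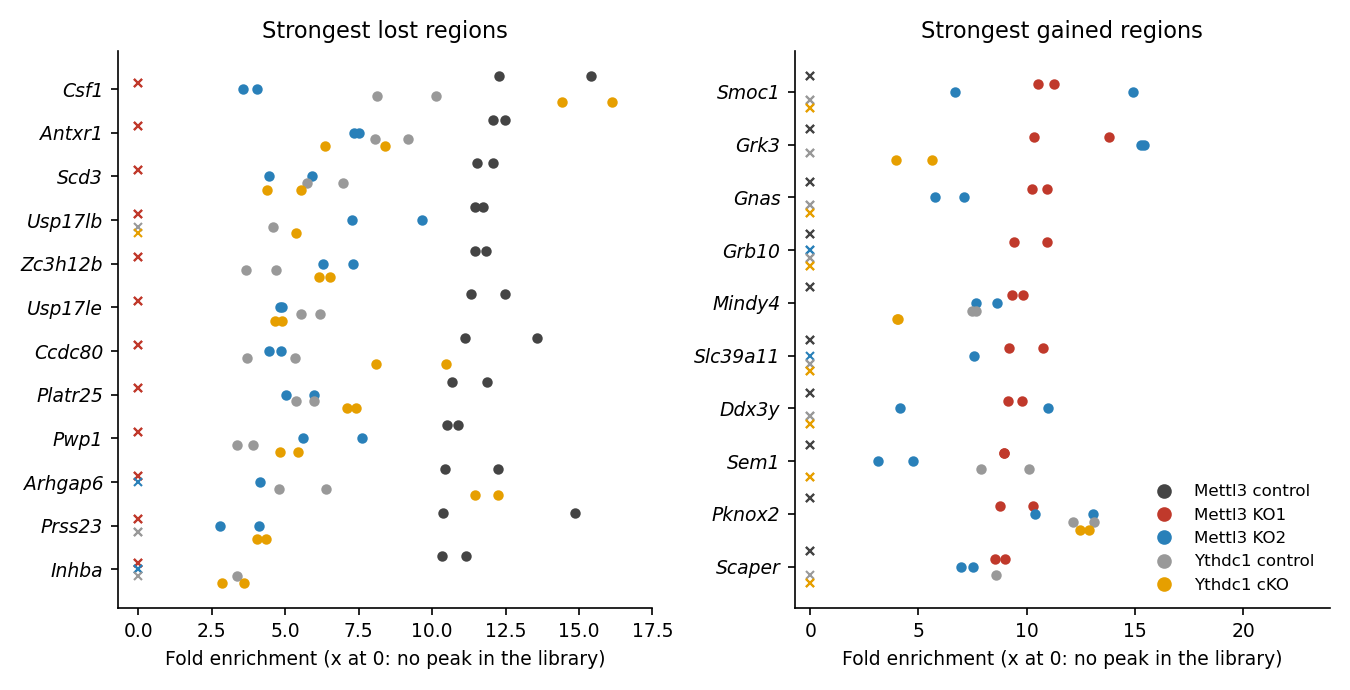
Fold enrichment within each library (x axis, ratio to background; crosses at 0 mark no called peak) of the 12 strongest lost regions on the left and the 10 strongest gained regions on the right, coloured by group. The control points of the lost regions lie between 10.4 and 15.4, the KO1 libraries have no peak there, and the called KO2 points reach at most 9.67. Folds of different libraries share no scale.

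Macf1, a cytoskeletal linker gene, gained 11 of its 42 KO1 regions, Fhit 9 of 18, Mcc 8 of 15, Plxdc2 8 of 13, Slc39a11, a zinc transporter gene, 8 of 17 and Smyd3, a lysine methyltransferase gene, 7 of 31, which were the 6 genes with most gained regions. Among the strongest kept regions, whose folds share no scale between libraries, Usp35 measured 29.2 and 28.2 in the controls and 33.5 and 28.4 in KO1, Brwd3 26.2 and 27.2 against 30.7 and 27.3, Trmt13 25.7 and 24.9 against 25 and 23.0, and Pms2 24.6 and 23.6 against 18.8 and 21.3.

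Genes of the two-cell-like state, a transient state of stem cell cultures with genes of the early embryo, had the largest share of lost regions of the 21 lists, 18 of 27 (66.7%). Of 16 genes with a control region, 15 lost at least 1 and 8 lost all, against 33.8% and 11.0% of all genes. Zfp352, Tcstv1 and Tcstv3 lost all their regions, with Tcstv1 at 5.96 and 6.58 in the controls. All 6 Zscan4 genes lost 1 of their 2 regions, the one nearer the transcript's start, such as Zscan4c at 7.38 and 8.25 and Zscan4d at 6.90 and 7.74. The regions in the coding exons of Zscan4b, Zscan4e and Zscan4f were kept, with Zscan4b at 11.6 and 11.1 in the controls and 3.59 and 2.65 in KO1, Zscan4e at 7.47 and 9.40 against 4.26 and 4.21, and Zscan4f at 8.79 and 7.41 against 5.38 and 7.37. Eif1a was the 1 gene that lost no region and it gained 1. Of the 18 lost regions, 10 were called in both KO2 libraries, 9 in both Ythdc1 control libraries and 2 in both cKO libraries.

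These genes belong to multicopy families, and how reads with several matches were counted is not given in the sources used here, so members cannot be told apart with certainty. The Zscan4c window printed above occurs in 3 other genes, and that of Gm8300, a lost region at 7.67 and 10.1, in 5 others. Exact copies of the 51 nt at the summit in another gene were found for 7.17% of lost exonic regions (95% Wilson interval 6.23 to 8.25), 4.54% of kept (4.16 to 4.96) and 8.51% of gained ones (6.38 to 11.3). These intervals cover counting error only.

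Fibroblast and matrix genes lost 9 of 16 regions (56.2%, against 24.3% of all regions). Of 10 such genes with a control region, 5 lost all, against 11.0% of all genes: Ccdc80, Col1a1 (3.54 and 4.32), Col1a2 (3.91 and 3.24), Col5a2 (3.17 and 4.09) and Lox (3.04 and 3.32), which encode a matrix protein, 3 collagen chains and the enzyme that crosslinks them. Thbs1, the thrombospondin gene, lost 3 of 5, and its kept 3′ UTR region measured 12.5 and 9.37 in the controls and 4.05 and 4.97 in KO1. The other 3 kept regions were those of Col5a1 at 10.2 and 12.9 in the controls and 3.76 and 3.72 in KO1, Pdgfrb at 7.48 and 7.67 against 5.26 and 6.97, and Fbn1 at 10.6 and 6.51 against 7.41 and 14.6. Of the 9 lost regions, 1 was called in both KO2 libraries. Of the 12 fibroblast markers, 6 held no region in the controls, and the part that a change in cell types has in these losses was not tested.

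Nuclear and imprinted long non-coding RNAs lost 34 of 116 regions (29.3%), near the 24.3% of all regions. Of the 34, 18 came from 3 genes, Airn, Kcnq1ot1 and Platr25, of which the annotation used classes Platr25 as protein-coding. Airn, the antisense RNA of the Igf2r imprinted cluster, lost 9 of 10, with control values from 2.56 to 9.55, and kept 1 that measured 6.62 and 6.84 in the controls and 4.69 and 4.34 in KO1. Platr25 lost 5 of 8, and Kcnq1ot1, the imprinting RNA of the Kcnq1 cluster, 4 of 21. Outside this list, Trp53cor1, the p53-induced lincRNA-p21, lost 7 of 8. Platr31, a transcript antisense to another gene, lost its only region (10.6 and 9.08), a call that ended when strands were merged. Of the 34 regions of the list, 26 were called in both cKO libraries, 17 in both Ythdc1 control libraries and 13 in both KO2 libraries.

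Pluripotency genes kept most of their m6A regions. Of 76 control regions in 24 genes, 5 were lost (6.58%) and 69 kept. That lost share was below the 24.3% of all regions, which include intergenic and antisense ones that a gene list cannot hold. It was also below the 16.5% of intron and the 13.7% of coding exon regions. Sox2, Nanog, Esrrb and Klf4 kept each of their regions, Sox2 at a height of 5.56 in the controls and 4.74 in KO1, and Nanog also gained an intron region at 3.51 and 3.91. Utf1, a chromatin-associated factor of undifferentiated cells, lost its only region, which measured 7.65 and 8.82 and had no peak in KO2, and that call ended when strands were merged. Dppa2, Tet1 and Tfcp2l1 each lost 1 weak region, calls that ended with the same number of strongest peaks.

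Genes of the m6A machinery lost smaller shares of their regions than the 24.3% of all, which include intergenic and antisense ones. The writer complex share of 13.8% was close to the 13.7% of coding exon regions. In the writer complex 4 of 29 regions were lost and 1 of 9 genes lost all, near the 11.0% of all genes: that of Mettl3, 2 of 8 in Virma and 1 of 3 in Wtap, and both genes also gained 1. Cbll1, which encodes the ubiquitin ligase subunit HAKAI, kept its region at 12.4 and 11.2 in the controls and 13.0 and 12.1 in KO1. Among readers and erasers 3 of 56 were lost, 1 each in Fmr1 (9.85 and 6.89), Fto (5.33 and 6.72) and Alkbh5, and no gene lost all.

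In the Nodal, activin, TGF-beta and BMP pathway 17 of 76 regions were lost (22.4%), near the 24.3% of all. That share was above the 16.5% of introns and the 13.7% of coding exons. Of 26 genes 2 lost all, namely the ligand gene Inhba and the target gene Id3 (5.53 and 2.67). The Id3 call ended with the same number of strongest peaks. The receptor gene Tgfbr1 lost 2 of 7 regions and Smad4, the shared signal transducer, 2 of 6. The strongest lost region of each ended as a call when a KO1 peak within 500 bp counted as presence. Acvr2b and Bmpr2, which encode type II receptors, kept regions at 18.2 and 16.8 and at 22.6 and 20.3 in the controls. Wnt pathway genes lost 5 of 68 regions in 3 of 16 genes, among them the co-receptors Lrp5 and Lrp6, and Ctnnb1, which encodes beta-catenin, gained 1 at 4.27 and 4.32.

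MAPK feedback genes lost 3 of 32 regions, a share below the 24.3% of all regions, which include intergenic and antisense ones. Coding exon regions were lost in 13.7% of cases. Of 18 MAPK feedback genes 2 lost all, near the 11.0% of all genes. Those were Fosl2 (5.06 and 5.90) and the phosphatase gene Dusp5 (4.6 and 4.75), which each lost their only region.

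Chromatin genes kept most regions. H3K9 methylation and silencing genes lost 2 of 76, both in Setdb1, the methyltransferase gene of retroelement silencing, and gained 8 of 83. Polycomb genes lost 8 of 76, among them the only region of Cbx8 (4.08 and 3.82), while Cbx7, the main CBX subunit gene of stem cells, gained 3. Remodeler genes lost 15 of 144 and gained 16 of 175, with all control regions lost in Smarca2 and Smarcb1. Smarcb1 still held 1 KO1 region, at a height of 3.67, which was not a gained one. Genes of H3K4 and H3K36 methyltransferases and demethylases lost 12 of 156 and gained 20 of 156. All 4 lost shares lay below the 24.3% of all regions, which include the intergenic and antisense ones, and the gained counts are to be read against 12.3% of all KO1 regions.

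In the remaining lists the lost shares lay below the 24.3% of all regions. SR and Hnrnp splicing factor genes lost 2 of 44 regions, nuclear RNA decay genes 2 of 43, ribosomal protein genes 2 of 22, replication-dependent histone genes 2 of 21, primed and early differentiation genes 2 of 17, and primitive endoderm genes 4 of 20. Numbered zinc finger genes lost 108 of 901 regions, with 13 of 338 genes losing all, and Zfp936 lost 7 of 13. No region of the 6 mitochondrially encoded genes was lost.

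Over all heights lost and kept exonic regions held the core motif in like shares and gained ones in a lower share. GGAC occurred in the 101 nt around the summit in 53.5% of 2480 lost regions (95% Wilson interval 51.5 to 55.4), in 52.2% of 10399 kept regions (51.3 to 53.2) and in 34.1% of 495 gained regions (30.1 to 38.4), against 32.8% of all windows of that length on the same transcripts. The intervals of lost and kept regions overlapped over all exons but not in coding exons, where the shares were 56.5% of lost (53.6 to 59.4), 51.5% of kept (50.3 to 52.8) and 35.7% of gained regions with 38.5% of all windows, and in 3′ UTRs 51.8% of lost and 55.1% of kept regions with 25.2% of all windows. Gained regions were weaker, and kept regions in the weakest bin of KO1 had GGAC in 47.7% where gained ones of that bin had it in 33.0% (27 to 39.6). Lost regions were also weaker than kept ones. In the weakest bin of the controls GGAC occurred in 49.8% of lost (46.4 to 53.2) and 42.4% of kept regions (39.7 to 45.0). In the next bin the shares were 55.7% (52.3 to 59.2) and 48.0% (45.1 to 51.0), and in the stronger bins the intervals overlapped. The broader DRACH motif was found in 94.8% of lost, 93.2% of kept and 81.2% of gained regions, with 86.2% of all windows. A match is only a description of the letters in the window. Intron and intergenic regions, which hold most of the lost and gained calls, were not searched, because only transcript sequence was used here.

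**Figure D4:**
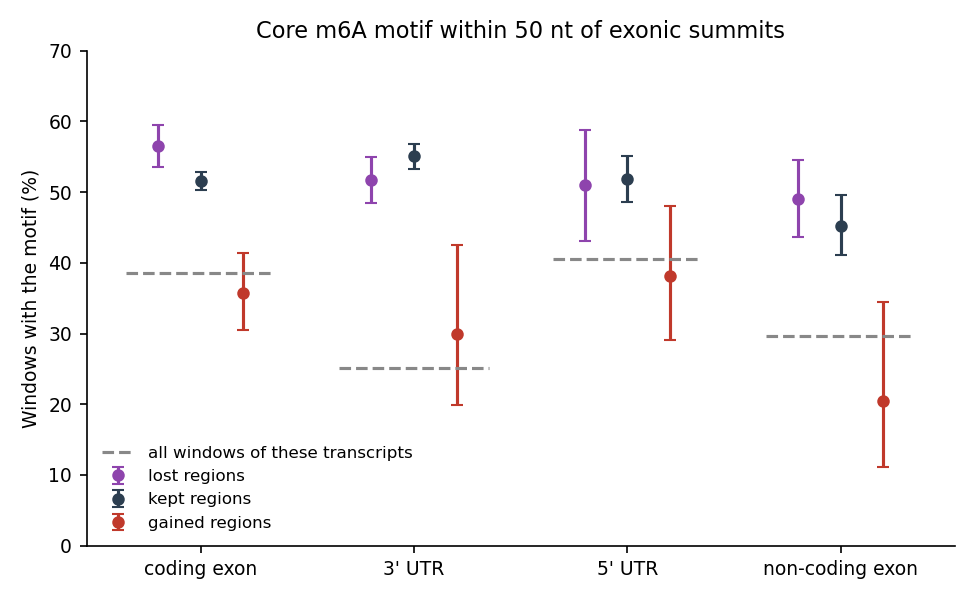
Share of exonic summits with GGAC within 50 nt (y axis, percent) for lost, kept and gained regions in 4 exonic classes, with 95% Wilson intervals and a dashed line for all windows of these transcripts. Lost and kept points lie between 45.3% and 56.5%, and gained points between 20.5% and 38.1%, near the dashed lines.

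Many lost regions were called in libraries the rule did not use. In KO2 38.1% and 35.2% of lost regions held a peak, in the Ythdc1 control 51.4% and 49.4%, and in cKO 57.8% and 57.7%, while kept regions were found in 92.9% and 92.1%, 79.5% and 78.2%, and 82.5% and 82.3%. Gained regions were found in 39.7% and 36.8% of cases in KO2, 24.2% and 21.6% in the Ythdc1 control, and 16% and 17.2% in cKO. The KO2 and KO1 libraries are set against the same controls, so these values are given side by side only.

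The strongest lost regions were the ones most often found elsewhere. Of the 385 lost regions in the strongest height bin, 71.9% were called in both KO2 libraries, 79.7% in both Ythdc1 control libraries and 82.1% in both cKO libraries, and 213 were called in all 6. In the weakest bin the shares were 18.6%, 43.0% and 42.0% of 2410. Kept regions showed a rise too, from 77.3%, 60.4% and 56.9% in the weakest bin to 98.7%, 93.2% and 96.6% in the strongest. Of the kept regions in the strongest bin 90.7% were called in all 6, against 55.3% of the lost ones. By class, lost distal intergenic regions were found in both Ythdc1 control libraries in 30.8% and in both cKO libraries in 64.1% of cases, whereas lost coding exon regions were found in 66.5% and 54.1%. For kept regions these values were 58.5% and 76.0% in distal intergenic sequence, and 96.7% and 94.2% in coding exons.

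The highest lost regions of all lay outside genes. The first, chosen for its height, was at chr4:20942481-20942775 on the plus strand, in distal intergenic sequence, and measured 18.6 and 18.2 in the controls. It was called at 10.5 and 9.68 in KO2, at 7.78 and 8.93 in the Ythdc1 control and at 7.13 and 8.14 in cKO. The 50 strongest lost regions outside genes had heights of 10.5 to 18.2 and a median width of 300.5 bp, close to the 274 bp of all lost regions, and 44 of them were called in all 6 libraries outside the rule. The 50 strongest kept regions outside genes had a median width of 755 bp, and 49 were called in all 6.

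Chromosomes 8 and X had larger lost shares than the remaining autosomes. On chromosome 8, 742 of 2485 control regions were lost (29.9%) and 118 of 1729 KO1 regions gained (6.82%), outside the range of the other 18 autosomes, which was 20.9% to 26.7% for lost and 10.6% to 14.5% for gained regions. On chromosome 8, introns gained 10% (15.9% to 23.0% on the others) and lost 22.3% (13.0% to 19.1%), and coding exons lost 19% (8.03% to 16.1%), whereas intergenic sequence lost 54.9%, within the range of the others (34.7% to 58.4%). Its 20 Mb blocks lost 23.7% to 36.7% and gained 3.83% to 9.58%. Of all peaks, 6.39% and 6.48% lay on chromosome 8 in the control libraries and 5.34% and 5.40% in the KO1 libraries. KO2 had 5.76% and 5.78% there, and the Ythdc1 arm 5.54% to 5.84%. In the KO2 comparison it lost 21.7% and gained 10.5%, beside 18.4% lost and 14.7% gained over all regions of that comparison.

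The X chromosome lost 32.3% of 1217 control regions and gained 13.8% of 947. In the KO2 comparison X lost 20.8% and gained 19.7%, both above the 18.4% and 14.7% of all regions there. The Y chromosome had 77 control regions, of which 28 were lost (36.4%), and 63 KO1 regions, of which 16 were gained (25.4%). Of those, 4 lay in Ddx3y, an RNA helicase gene, the strongest at 9.13 and 9.78. The gained share of X lay within the range of the autosomes, and the lost share above it. By class, X coding exons lost 15.4% and introns 16.2%, both within the ranges of the autosomes other than 8. X intergenic sequence lost 61.0% and X 3′ UTRs 29.7%, above the highest values of those autosomes (58.4% and 24.5%). On X 341 of the 1217 control regions were intergenic, against 5883 of 38233 on all chromosomes. How far this make-up accounts for the lost share of X was not tested. Without chromosomes 8 and X, 8139 regions were lost and 3710 gained, and the lost share of both was 68.7%.

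**Figure D5:**
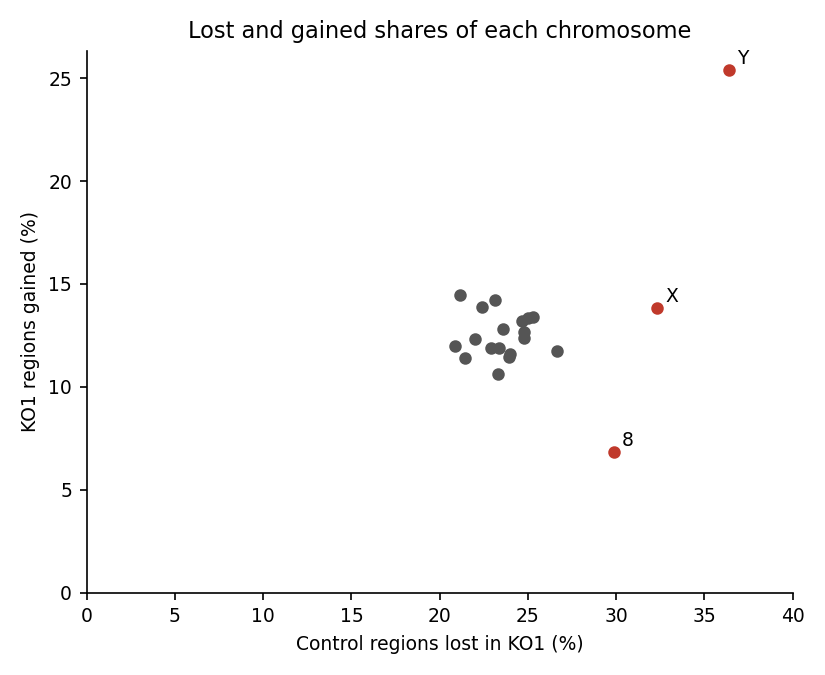
Share of control regions lost (x axis, percent) against the share of KO1 regions gained (y axis, percent) for each chromosome, with chromosomes 8, X and Y labelled in red and the other 18 autosomes in grey. Chromosome 8 lies at 29.9% lost and 6.82% gained, to the right of and below the grey points.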

How the data were processed

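The values were taken from the 10 deposited peak lists, 1 per immunoprecipitated library, and the 10 inputs were not used here. Reads were handled with MACS2, HISAT2 2.1.0, Trimmomatic 0.38 and CASAVA on the mm10 build, per the submitters' processing notes. Not given in the sources used here are MACS2's version, its command line and any use of an input as control. The authors called peaks per library and strand and deposited for each peak a display score, a fold enrichment (a ratio to background at the summit), p- and q-values as −log10, and the summit position. By the values, peaks were at least 150 bp long with a −log10 q of at least 2.0003. The lists hold no read totals, so depth is unknown. The pile-up at a summit was computed from its fold and p-value and came out whole within 0.005 on the −log10 scale. Folds were used only to describe and rank peaks within a list.

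Peaks of the 2 control and 2 KO1 lists were merged per strand (1 bp overlap). Each region was classed by its summit against GENCODE M21 (55450 genes), with promoters within 2 kb and gene ends within 10 kb. Height is the smaller of a group's 2 folds. Group values were compared with two-sided exact permutation tests, in which 2 against 2 cannot go below p = 0.333. Shares carry Wilson 95% intervals that cover counting error only. Named genes are, by a fixed rule, the 12 lost, 10 gained and 5 kept regions of greatest height with 1 per gene, the 6 genes with most lost and with most gained regions, the 4 long non-coding RNAs with most lost regions, Mettl3, Ythdc1, and a few members of each of 21 gene lists by height. Members of the lists that stand outside that rule were named after their values were seen, as were the comparisons of chromosomes, runs and regions outside genes. The members and lists were chosen with earlier results of these data known, so a count over a list is a description. Some items that the rule names are not reported here. The merging and classing were checked on simulated data. Python 3.11.15, pandas 2.3.3, numpy 2.4.6, scipy 1.17.1 and matplotlib 3.10.9 were used. The alternatives tried were a stricter q, no merging, merging without strand, a 500 bp tolerance, the same number of strongest peaks, height bins, classes by midpoint, leaving out each library, and the replicate number as a block.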

Additional observations from a re-analysis of the deposited data

Results flagged for a closer look

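For 6 chromosomes the KO1 and KO2 libraries lay on opposite sides of both control libraries in their share of peaks, and the difference between KO1 and KO2 was not tested. The mean shares in control, KO1 and KO2 were 5.90%, 5.75% and 6.03% on chromosome 1, 6.58%, 6.74% and 6.26% on chromosome 4, and 6.35%, 6.31% and 6.49% on chromosome 5. They were 5.40%, 5.49% and 5.05% on chromosome 6, 4.87%, 4.90% and 4.62% on chromosome 17, and 3.22%, 2.90% and 3.39% on chromosome X. The X chromosome showed the widest gap of these between KO1 and the controls.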

How the results depend on the processing

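Of the alternative values computed, 42 of 55 planned ones and 7 of 8 added ones counted as the same, and none changed direction. For region counts this meant within 1.5 times the main count, and for shares of absent or present regions within the SD between libraries. For the differences in intron share, intergenic share and covered length it meant only the same direction. The replicate block leaves those differences unchanged by construction. Leaving out a library gave 11388 to 14096 lost and 5547 to 7914 gained regions, an intron difference of 11.86 to 11.9 and an intergenic one of -6.781 to -6.595 percentage points, and a covered length difference of -4.236 to -3.35 Mb. It gave 36.08 to 37.09 points for intergenic minus coding exon regions absent per KO1 library (36.09 with all libraries) and 19.6 to 25.71 points for intron minus coding exon regions absent per control library (20.05). The first was 27.25 in the strongest 2 bins, 31.82 as a mean over bins, 35.85 by region midpoint, and 35.47 without chromosomes 8 and X, an alternative chosen after seeing the data. The second was 8.269 in the strongest 2 bins and 17.48 as a mean over bins. With the same number of strongest peaks 5969 regions were gained. With the replicate number as a block, the differences were 11.88 and -6.688 points and -3.793 Mb, each with an exact permutation p of 0.5, the smallest possible. Replicate differences in fold correlated at 0.0316 over 24715 kept regions. This covers only the folds of kept regions, so it cannot show whether libraries of the same number were handled together. Of 91 named lost regions, 10 ended as calls with the 500 bp tolerance, 3 when strands were merged, 12 with the same number of strongest peaks and 1 with a stricter q. Of 63 named gained regions, 3 ended with the tolerance. With 2 libraries a group and no read totals, a region near the detection limit cannot be called absent with certainty, and the cause of these shifts was not tested.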
